A study of Homo sapiens with 6 samples.

Results

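The genes of cholesterol and fatty acid synthesis were followed in T98G cells, a human glioblastoma line, after knockdown of the protein kinase DYRK1A. They were chosen by symbol from 23026 genes of the deposited normalized table, and all 30 genes of the list were found. The list holds 6 enzymes of the mevalonate pathway, 11 enzymes that turn farnesyl pyrophosphate into cholesterol and 5 genes of sterol sensing and transport. The other 8, genes of acetyl-CoA supply and fatty acid synthesis, include the thiolase ACAT2, which joins acetyl-CoA units on the way to mevalonate. Of the 30 genes, 28 were expressed above the filter used for testing (a mean of more than 10 normalized counts in CPM, counts scaled to a common library total), as were 9697 genes in all. The remaining pair, CYP51A1 and TM7SF2, is described by its counts.

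The study compared RNA levels with and without DYRK1A knockdown, to ask how its target genes respond. T98G cells in serum-containing medium were infected with a lentivirus that delivers either a control hairpin (shControl, 3 libraries) or a hairpin against DYRK1A (shDYRK1A, 3 libraries), selected with puromycin and left to recover without it. Both groups thus carried a virus and its resistance gene, and the knockdown was a population of infected cells, not a clone or a deletion. The study describes no other hairpin against DYRK1A for this comparison. Effects of the hairpin sequence on other genes cannot be told apart here from those of DYRK1A loss. A set amount of the fly line Kc167 had been added to equal numbers of T98G cells, so that fly reads could give a scale per T98G cell. The labels name the libraries of each group 1A, 1B and 1C and do not say whether they came from separate cultures, so p-values measure the spread between these libraries.

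The libraries held 33708297 to 42154438 counts in human genes. The library shDYRK1A 1B had the lowest total and the largest share of unmapped reads (15.65%, against 8.44 to 11.92% in the others). DYRK1A itself was lower in each knockdown library, at 1482, 1056 and 1285 normalized counts against 2227, 2234 and 1895 in shControl, with a log2 fold change of -0.73 ± 0.15 (SE; edgeR adjusted p = 5.33e-06) on the scale of the fly spike-in. Relative to the other human genes it was -0.34 ± 0.06 (edgeR adjusted p = 0.000591). The T98G markers VIM, CD44, FN1 and NES summed to 4282 to 4351 CPM in shControl and 3713 to 3872 in shDYRK1A, NES being low. Marker sums of leukocytes, endothelium, oligodendrocytes, astrocytes and epithelium were under 2 CPM in every library. The 3 neuronal markers summed to 10.5 to 11.8 CPM in shControl and 6.08 to 6.83 in shDYRK1A, almost all of it SNAP25. AQP4 (astrocytes) and CD3E (leukocytes) had 0 counts in all 6 libraries. Whether the marker differences have a part in the results was not tested.

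Animal cells build cholesterol from acetyl-CoA. Acetyl-CoA units are joined into mevalonate, mevalonate is phosphorylated and decarboxylated into isoprenoid units, these are condensed to farnesyl pyrophosphate and then to squalene, and squalene is oxidised, cyclised and trimmed to cholesterol. The transcription factors SREBP1 and SREBP2 drive most of these genes. When sterols are scarce in the endoplasmic reticulum, SCAP escorts the SREBPs to the Golgi, where they are cut and released. When sterols are plentiful, INSIG proteins hold SCAP back. SREBP2 is known mainly for the sterol genes and SREBP1c for the fatty acid genes. Cells in serum can also take cholesterol up from lipoproteins.

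SREBPs bind promoters together with the CCAAT-binding factor NF-Y and with Sp1, which recognises GC boxes. Promoter windows from RefSeq (GRCh38.p14), 250 bases before to 50 bases after the start, were matched for 26 members, in 35 windows. CCAAT on either strand was found in 24 of the 35 windows (68.57%), against 34.61% of all 35116 promoter windows and 35.02% of the 11172 windows of genes past the filter. The GC box letters GGGCGG were present in 31 windows (88.57%, against 44.95% of all windows and 68.15% of those past the filter). The E-box CACGTG was present in 5 windows of 4 members (14.29%, against 7.26% of all windows and 9.58% of those past the filter), 2 of them overlapping windows of SC5D. The strict sterol regulatory element core TCACNCCAC was found in 1 window (2.86%, against 1.13% of all windows and 1.06% of those past the filter). The letters CTCGCGAG, the inner part of the palindrome that the study ties to DYRK1A, were found in 0 of the 35 member windows, against 1.02% of all windows and 2.02% of those past the filter. With shares this low, 0 of 35 windows does not set the members apart. No window was matched for FDFT1, SQLE, ACAT2 and FASN, so nothing is known here of their motifs. No motif searched contains another, and a match is only a match of letters.

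The 4 printed promoters belong to the members past the filter with the largest relative fold changes in either direction with a searched motif other than the GC box in a printable window. MSMO1 and INSIG1 fell, and DHCR7 and MVK were relatively higher. The capitals mark CCAAT or its reverse complement ATTGG, and in INSIG1 also CACGTG. MSMO1 lies at chr4:165327419-165327718 (plus strand), INSIG1 at chr7:155297628-155297927 (plus), DHCR7 at chr11:71448344-71448643 (minus) and MVK at chr12:109573544-109573843 (plus). The fifth sequence is the stretch of the SREBF2 promoter at chr22:41832942-41833010 (plus) with the one strict sterol element, in capitals, 133 bases before the start. Only that element is in capitals there, and an ATTGG in the same stretch is left in lower case.
MSMO1: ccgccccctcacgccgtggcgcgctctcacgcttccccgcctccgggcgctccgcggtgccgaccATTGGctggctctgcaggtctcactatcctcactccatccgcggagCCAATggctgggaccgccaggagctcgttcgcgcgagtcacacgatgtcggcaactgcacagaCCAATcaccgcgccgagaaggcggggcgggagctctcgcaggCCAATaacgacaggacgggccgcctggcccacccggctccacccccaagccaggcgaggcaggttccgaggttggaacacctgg
INSIG1: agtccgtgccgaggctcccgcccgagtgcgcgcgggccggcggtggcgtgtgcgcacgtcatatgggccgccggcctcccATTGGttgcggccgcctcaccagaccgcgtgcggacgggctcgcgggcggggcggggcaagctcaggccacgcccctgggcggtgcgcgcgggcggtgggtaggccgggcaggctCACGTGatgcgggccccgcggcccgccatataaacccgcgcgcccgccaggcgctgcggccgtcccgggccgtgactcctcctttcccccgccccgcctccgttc
DHCR7: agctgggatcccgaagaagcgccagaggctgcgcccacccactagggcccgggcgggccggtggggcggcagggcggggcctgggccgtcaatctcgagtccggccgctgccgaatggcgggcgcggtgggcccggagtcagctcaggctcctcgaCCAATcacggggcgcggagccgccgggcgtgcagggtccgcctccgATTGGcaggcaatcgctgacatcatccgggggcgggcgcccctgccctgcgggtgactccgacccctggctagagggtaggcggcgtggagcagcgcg
MVK: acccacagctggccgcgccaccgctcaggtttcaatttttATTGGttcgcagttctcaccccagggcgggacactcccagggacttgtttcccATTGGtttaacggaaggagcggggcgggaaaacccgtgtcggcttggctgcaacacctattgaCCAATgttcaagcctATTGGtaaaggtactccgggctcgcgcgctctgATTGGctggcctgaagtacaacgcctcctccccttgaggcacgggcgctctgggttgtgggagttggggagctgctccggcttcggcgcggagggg
SREBF2: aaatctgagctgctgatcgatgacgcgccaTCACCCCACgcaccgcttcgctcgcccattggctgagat
MSMO1 holds 4 CCAAT letters, INSIG1 1, DHCR7 2 and MVK 5. The windows were picked for holding a motif, and the other DHCR7 window, at chr11:71448994-71449293, holds 0.

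T98G cells in the control condition expressed the whole pathway, at levels that spanned a wide range (the plot of levels per kilobase). Per kilobase of annotated exon, the fatty acid desaturase SCD was the highest member, with 9030 ± 899 (SD, n = 3) normalized counts per kb, and 1.58% of the genes past the filter were higher. ACLY, which makes cytosolic acetyl-CoA from citrate, followed at 3128 ± 251, then farnesyl pyrophosphate synthase FDPS at 2925 ± 282 and squalene synthase FDFT1 at 2700 ± 279, each within 1 SD of the next in this order. The median of genes past the filter was 389 normalized counts per kb, and 23 of the 30 members were above it. The low end was held by mevalonate kinase MVK at 158 ± 20.0, by the sterol reductase TM7SF2 at 67.0 ± 13.0 and by lanosterol demethylase CYP51A1 at 16.8 ± 2.62. In GENCODE v29, 79.4% of the exonic bases of CYP51A1 are shared with other genes on the same strand, so its count is uncertain.

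**Figure D1:**
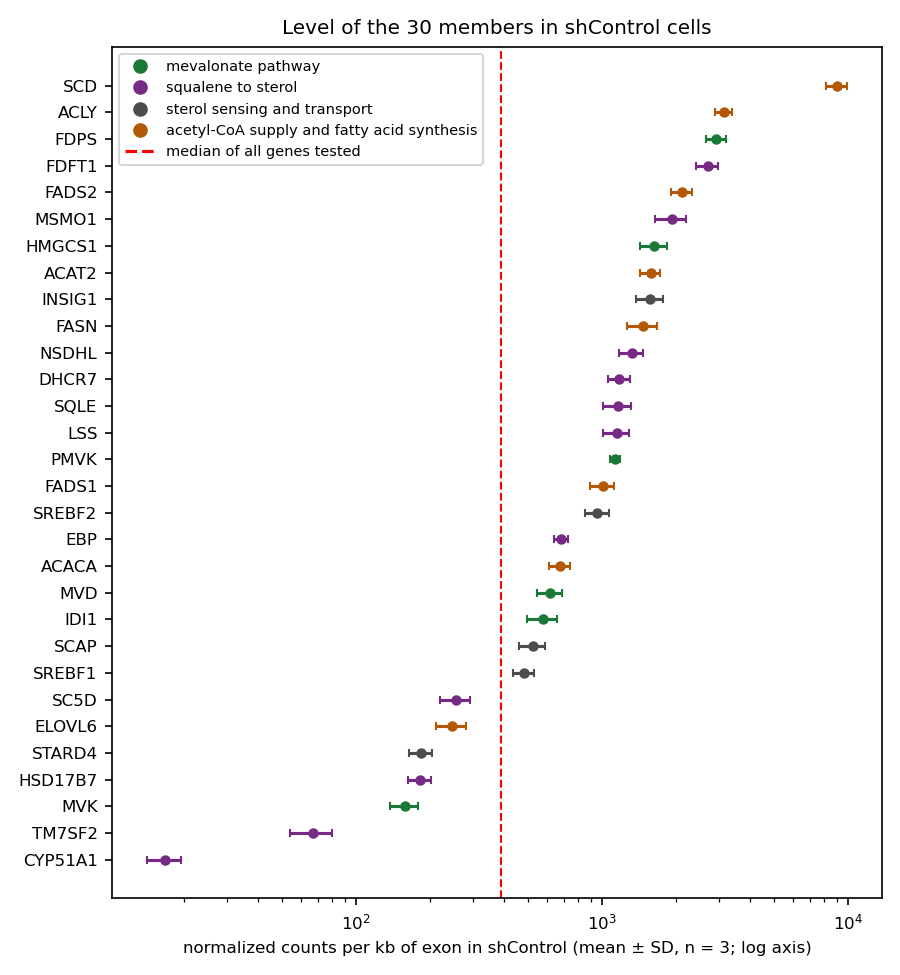
Level of the 30 members in shControl, in normalized counts per kb of exon on a log axis. Points are means and bars SD over 3 libraries, coloured by branch, and the dashed line is the median of genes past the filter (389). SCD lies highest at 9030 and CYP51A1 lowest at 16.8.

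Taken as a list, the members were lower about as all genes were, and 3 of them, MSMO1, INSIG1 and SQLE, had the lowest fold changes. On the spike-in scale, which compares RNA per T98G cell, 4 of 28 members were called lower (adjusted p below 0.05 and log2 fold change below -0.7; edgeR), which is 14.3%, and 14.3% of all genes tested were called lower. The 4 were MSMO1, INSIG1, SQLE and FADS2. No member was called higher (0 of 28, against 0.278% of all genes), and the count was also 0 at an unadjusted p under 0.05 and with DESeq2. By adjusted p alone 18 of 28 members were lower in edgeR (64.3%, against 63.4% of all genes) and 0 were higher (against 1.08%). With DESeq2 21 were lower, a count for which no share of all genes is given and which is not to be read against the edgeR share.

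The spike-in scale moved nearly all human genes down, with a median log2 fold change of -0.40 over the 9697 genes tested and -0.44 over the 28 members. That scale gives a mean per T98G cell, and in bulk RNA fewer cells of a type and less RNA in each cannot be told apart. Because the spike-in scale moved nearly all genes together, each member was also compared with the other human genes, using TMM scaling. On that scaling the median of all genes is 0.00 and that of the members -0.04. On this relative scale 10 of 28 members passed an adjusted p of 0.05 in the lower direction (28.6% of all genes) and 7 in the higher direction (27.3% of all genes). The groups did not overlap, with shDYRK1A lower, for 19 of 28 members in normalized counts (63.6% of all genes) and for 12 in TMM-scaled CPM (32.5%), and shDYRK1A was the higher without overlap for 9 in TMM-scaled CPM (30.7%). The members thus stood near the background in these counts, and the differences lay between the genes of the list. The sign of 10 members, HMGCS1, PMVK, FDPS, NSDHL, EBP, SREBF1, SREBF2, SCAP, STARD4 and FASN, was negative with the spike-in and positive relative to the other genes, so these have no direction that holds under both scalings.

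**Figure D2:**
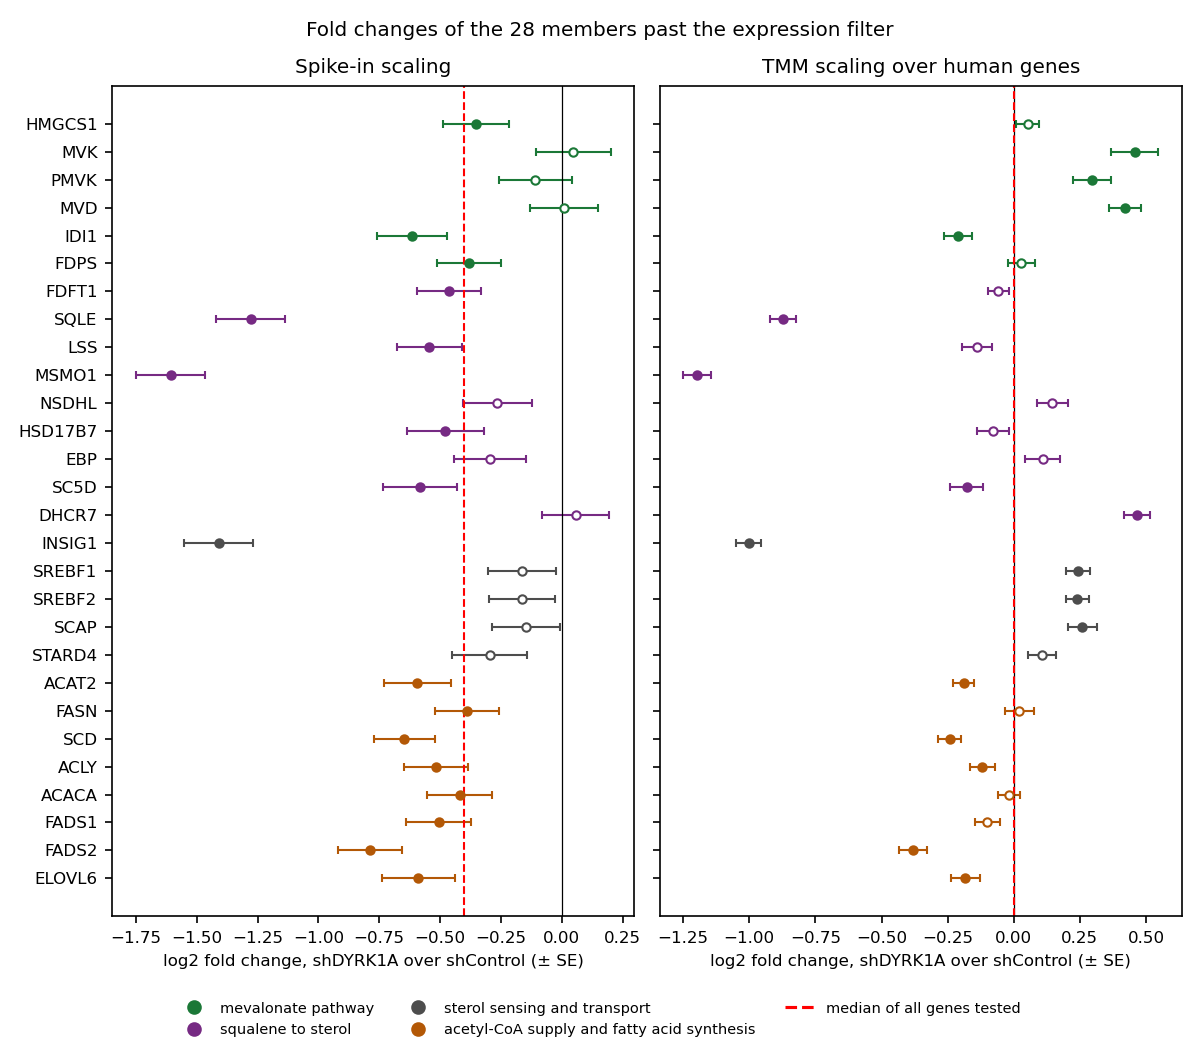
Log2 fold change of shDYRK1A over shControl (points) with its SE (bars) for the 28 members past the filter, in pathway order and coloured by branch, with spike-in scaling (left) and TMM scaling (right). Filled points have an adjusted p below 0.05, and the dashed line is the median of all genes tested (-0.40 and 0.00). MSMO1, INSIG1 and SQLE stand far to the left of all other members on both scales.

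MSMO1, SQLE and INSIG1 fell most. MSMO1 is the methylsterol monooxygenase that starts the removal of the methyl groups at carbon 4 of the sterol ring. In shControl it had 5934, 6112 and 4624 normalized counts, and after knockdown 1940, 1698 and 1831. The groups were far apart, the highest knockdown library lying well under the lowest control. The log2 fold change was -1.61 ± 0.14 with the spike-in (SE, n = 3 and 3; edgeR adjusted p = 1.12e-26) and -1.20 ± 0.05 relative to the other genes (edgeR adjusted p = 3.37e-08), which placed MSMO1 at rank 22 from the lowest of 9697 genes on both scales.

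INSIG1 encodes the protein that retains SCAP and the SREBPs in the endoplasmic reticulum, and it is itself a classical SREBP target. It had 6144, 6199 and 4887 normalized counts in shControl and 2332, 1928 and 2224 in shDYRK1A. No knockdown library came near the lowest control. The log2 fold change was -1.41 ± 0.14 with the spike-in (edgeR adjusted p = 5.82e-21) and -1.0025 ± 0.05 relative to the other genes (edgeR adjusted p = 4.6e-08), at rank 46 and 47 from the lowest.

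SQLE is squalene epoxidase, which adds the first oxygen to the sterol skeleton and is one of the slow steps of the pathway. In shControl it had 5570, 5145 and 4297 normalized counts, against 2268, 1843 and 2081 after knockdown. The groups were again separate. The log2 fold change was -1.28 ± 0.14 with the spike-in (edgeR adjusted p = 3.26e-17) and -0.87 ± 0.05 relative to the other genes (edgeR adjusted p = 1.43e-07), at rank 77 from the lowest on both scales. Without any 1 library, each of these 3 genes passed both tests, with log2 fold changes on the spike-in scale of -1.72 to -1.53 for MSMO1, -1.51 to -1.33 for INSIG1 and -1.38 to -1.19 for SQLE.

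**Figure D3:**
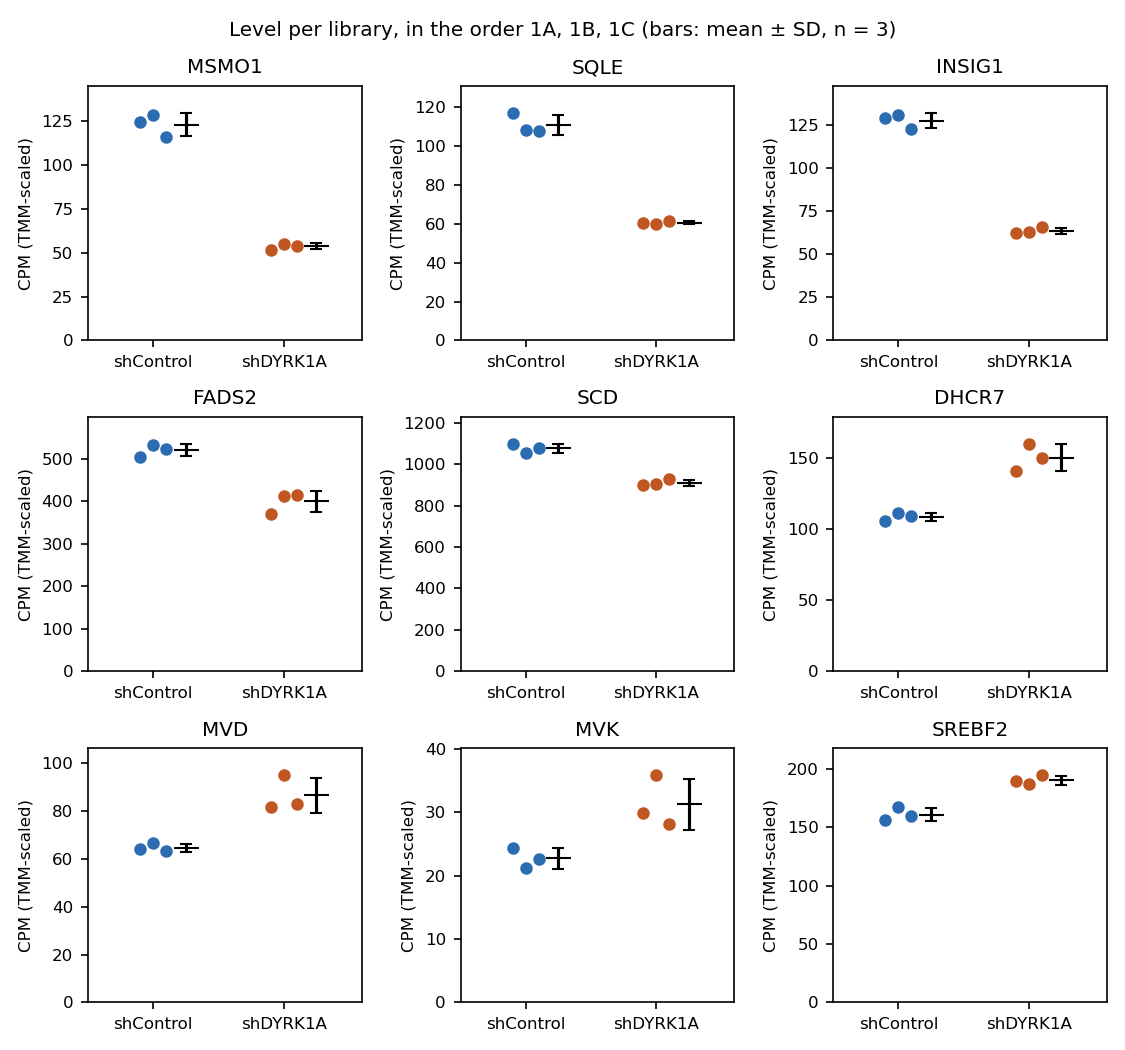
TMM-scaled CPM (vertical axes from 0) of 9 members in each library, in the order 1A, 1B and 1C, with the mean and SD of each group beside the points. The groups of MSMO1, SQLE, INSIG1, FADS2 and SCD are separate with shDYRK1A below, and those of DHCR7, MVD, MVK and SREBF2 are separate with shDYRK1A above.

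In the mevalonate pathway, 0 of 6 genes were called lower with the spike-in (14.3% of all genes; 0 also at an unadjusted p under 0.05 and with DESeq2), and the median log2 fold change was -0.23 on that scale and 0.17 relative to the other genes. Relative to the other genes 3 of the 6 were higher (27.3% of all genes) and 1 was lower (28.6%). MVK, which phosphorylates mevalonate, had 24.4, 21.2 and 22.7 TMM-scaled CPM in shControl and 29.8, 35.8 and 28.2 in shDYRK1A. Every knockdown library exceeded every control. The log2 fold change was 0.46 ± 0.09 relative to the other genes (edgeR adjusted p = 0.00109) and 0.05 ± 0.15 with the spike-in (edgeR adjusted p = 0.784).

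MVD, the decarboxylase that makes isopentenyl pyrophosphate, stood at 64.0, 66.6 and 63.3 CPM in shControl and 81.8, 94.95 and 82.9 CPM in shDYRK1A. The groups were separate, with a log2 fold change of 0.42 ± 0.06 relative to the other genes (edgeR adjusted p = 0.000137) and 0.01 ± 0.14 with the spike-in (edgeR adjusted p = 0.956). PMVK, which acts between MVK and MVD, differed by 0.29 ± 0.07 relative to the other genes (edgeR adjusted p = 0.00458) and by -0.11 ± 0.15 with the spike-in (edgeR adjusted p = 0.515). The 3 enzymes that act one after the other on mevalonate were thus each higher relative to other transcripts, and none passed the test per cell. MVK and MVD changed sign on the spike-in scale without shControl 1C, at -0.03 and -0.08, and MVD also without shDYRK1A 1A, at -0.02.

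IDI1, the isomerase that follows, was lower on both scales, at 2782, 2608 and 2104 normalized counts against 1811, 1468 and 1604 (log2 fold change -0.62 ± 0.14 with the spike-in, edgeR adjusted p = 8.75e-05, and -0.21 ± 0.05 relative to the other genes, edgeR adjusted p = 0.00519). An antisense gene, IDI2-AS1, covers 14.8% of its exonic bases on the other strand. HMGCS1, which makes HMG-CoA at the entry of the pathway, and FDPS, which makes farnesyl pyrophosphate, differed by 0.05 ± 0.04 and 0.03 ± 0.05 relative to the other genes (edgeR adjusted p = 0.311 and 0.665). With the spike-in they differed by -0.35 ± 0.13 and -0.38 ± 0.13 (edgeR adjusted p = 0.0163 and 0.00855), calls with an edgeR adjusted p of 0.0823 to 0.14 for HMGCS1 without shControl 1A, shControl 1B, shDYRK1A 1B or shDYRK1A 1C, and of 0.0649 to 0.079 for FDPS without shControl 1A, shControl 1B or shDYRK1A 1C. HMGCS1 has an antisense overlap of 15.0% of its exonic bases, with AC114947.2. FDPS has 8 named pseudogenes and an antisense overlap of 18.6%, so its reads may be split.

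Between squalene and cholesterol the fold changes of the enzymes ranged from the lowest to the highest among the tested members. Of 9 genes tested, 2 were called lower with the spike-in (SQLE and MSMO1; 14.3% of all genes), and relative to the other genes 3 were lower (28.6% of all genes) and 1 was higher (27.3%). FDFT1, which makes squalene just before SQLE acts, differed by -0.06 ± 0.04 relative to the other genes (edgeR adjusted p = 0.222) and by -0.46 ± 0.13 with the spike-in (edgeR adjusted p = 0.0013). LSS, the cyclase just after SQLE, differed by -0.14 ± 0.06 (edgeR adjusted p = 0.0507) and -0.54 ± 0.13 (edgeR adjusted p = 0.000215) on the same scales. The relative call for LSS passed without shControl 1A (-0.20, edgeR adjusted p = 0.00759) and without shDYRK1A 1B (-0.15, edgeR adjusted p = 0.0484).

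Ratios of raw counts within a library need no scaling. The count of SQLE over that of LSS was 0.692, 0.547 and 0.572 in shControl and 0.372, 0.350 and 0.362 in shDYRK1A. The count of MSMO1 over that of NSDHL, the dehydrogenase that works with it on the carbon 4 methyl groups, was 2.09, 2.20 and 2.004 in shControl and 0.852, 0.781 and 0.854 in shDYRK1A. The groups were separate in both ratios, which were chosen after the values were seen and carry no test. NSDHL differed by 0.15 ± 0.06 relative to the other genes (edgeR adjusted p = 0.0534), and HSD17B7, the third enzyme of the same step, by -0.08 ± 0.06 (edgeR adjusted p = 0.299). NSDHL passed on this scale without shDYRK1A 1A (0.19, edgeR adjusted p = 0.0275). With the spike-in HSD17B7 was lower by 0.48 ± 0.16 (edgeR adjusted p = 0.00524), a call lost without shControl 1A (edgeR adjusted p = 0.0606) or shDYRK1A 1C (0.057), and NSDHL differed by -0.27 ± 0.14 (edgeR adjusted p = 0.0879; 0.0382 with DESeq2 and 0.0109 in edgeR without shControl 1C).

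At the end of the route, DHCR7, the reductase that turns 7-dehydrocholesterol into cholesterol, had the highest relative change of the tested members. It stood at 106, 112 and 109 CPM in shControl and 142, 160 and 150 CPM in shDYRK1A. The groups were separate, with a log2 fold change of 0.47 ± 0.05 relative to the other genes (edgeR adjusted p = 1.77e-05), which 4.34% of all genes exceeded. Per cell, its normalized counts of 5052, 5310 and 4356 against 5296, 4922 and 5091 overlapped (0.06 ± 0.14, edgeR adjusted p = 0.712). SC5D, which acts just before DHCR7, was lower on both scales (-0.58 ± 0.15 with the spike-in, edgeR adjusted p = 0.000465, and -0.18 ± 0.06 relative to the other genes, edgeR adjusted p = 0.0272). The relative call for SC5D was lost without shControl 1A (-0.17) or shControl 1B (-0.15). EBP, the isomerase of this stretch, differed by -0.29 ± 0.15 with the spike-in (edgeR adjusted p = 0.07; 0.0189 with DESeq2 and 0.0209 in edgeR without shControl 1C) and by 0.11 ± 0.07 relative to the other genes (edgeR adjusted p = 0.176).

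Of the pair below the filter, TM7SF2 was higher and CYP51A1 passed no test. TM7SF2, a sterol reductase that acts at carbon 14, had raw counts of 148, 236 and 243 in shControl and 377, 328 and 362 in shDYRK1A, and 180, 268 and 237 against 356, 304 and 298 normalized counts. It was the only member whose normalized counts were higher in every knockdown library than in every control. With the looser filterByExpr filter its log2 fold change was 0.48 ± 0.18 with the spike-in (edgeR adjusted p = 0.0209) and 0.84 ± 0.14 relative to the other genes (edgeR adjusted p = 0.00011). CYP51A1 had raw counts of 57, 53 and 52 against 43, 38 and 48, and 69.4, 60.1 and 50.6 against 40.6, 35.2 and 39.5 normalized counts. Its groups did not overlap in normalized counts or in TMM-scaled CPM, with shDYRK1A lower. With that filter its log2 fold change was -0.63 ± 0.29 with the spike-in (edgeR adjusted p = 0.0567) and -0.26 ± 0.21 relative to the other genes (edgeR adjusted p = 0.341).

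Among the genes of sterol sensing and transport, 1 of 5, INSIG1, was lower relative to the other genes (28.6% of all genes) and 3 were higher (27.3%). SREBF2, which encodes SREBP2, had 156, 167 and 159 CPM in shControl and 189, 187 and 194 CPM in shDYRK1A. The groups did not overlap, with a log2 fold change of 0.24 ± 0.04 relative to the other genes (edgeR adjusted p = 0.000594) and -0.16 ± 0.13 with the spike-in (edgeR adjusted p = 0.27). SREBF1, which encodes SREBP1, differed by 0.24 ± 0.05 (edgeR adjusted p = 0.00104) and -0.16 ± 0.14 (edgeR adjusted p = 0.288), and SCAP by 0.26 ± 0.05 (edgeR adjusted p = 0.00182) and -0.15 ± 0.14 (edgeR adjusted p = 0.342). All 3 were relatively higher and none passed with the spike-in over all 6 libraries, and without shControl 1C SREBF2 did (-0.25, edgeR adjusted p = 0.0483).

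The count of INSIG1 over that of SCAP was 1.83, 1.63 and 1.64 in shControl and 0.716, 0.679 and 0.726 in shDYRK1A, a ratio chosen after the values were seen. STARD4, a carrier of free sterol and a known SREBP2 target, differed by 0.11 ± 0.05 relative to the other genes (edgeR adjusted p = 0.115) and by -0.30 ± 0.15 with the spike-in (edgeR adjusted p = 0.0774; 0.0447 with DESeq2, and in edgeR 0.0141 without shControl 1C and 0.0386 without shDYRK1A 1A).

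All 8 genes of acetyl-CoA supply and fatty acid synthesis were lower by adjusted p on the spike-in scale (63.4% of all genes). Their log2 fold changes lay between -0.79 and -0.39, with a median of -0.55 against -0.40 for all genes, and 1, FADS2, passed the fold threshold. ACAT2 is counted among the 8, though its step leads to mevalonate. Relative to the other genes 5 of 8, ACAT2 included, were lower (28.6% of all genes), and 0 were higher (27.3%; 0 also at an unadjusted p under 0.05 in edgeR and with DESeq2). FADS2, the desaturase that starts the synthesis of long polyunsaturated fatty acids, had 24090, 25350 and 20850 normalized counts in shControl and 13890, 12700 and 14090 in shDYRK1A. The groups were separate, with a log2 fold change of -0.79 ± 0.13 with the spike-in (edgeR adjusted p = 2.89e-08) and -0.38 ± 0.05 relative to the other genes (edgeR adjusted p = 9.2e-05).

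FADS1, its neighbour on chromosome 11 and the next desaturase of the same route, differed by -0.51 ± 0.13 with the spike-in (edgeR adjusted p = 0.00051) and by -0.10 ± 0.05 relative to the other genes (edgeR adjusted p = 0.0864), which passed without shDYRK1A 1C (-0.14, edgeR adjusted p = 0.0239). The count of FADS2 over that of FADS1 was 2.15, 2.36 and 2.33 in shControl and 1.81, 1.98 and 1.84 in shDYRK1A, a ratio also chosen after the values were seen. The 2 genes lie on opposite strands and share 4.4 to 4.8% of their exonic bases.

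SCD, which makes monounsaturated fatty acids, had 52140, 50130 and 42980 normalized counts in shControl and 33560, 27860 and 31370 in shDYRK1A. All knockdown libraries were below all controls, with a log2 fold change of -0.65 ± 0.13 with the spike-in (edgeR adjusted p = 3.26e-06) and -0.24 ± 0.04 relative to the other genes (edgeR adjusted p = 0.000573). ACAT2, the cytosolic thiolase that joins 2 acetyl-CoA units, and ELOVL6, which elongates palmitate, were lower by 0.19 ± 0.04 and 0.18 ± 0.06 on the relative log2 scale. Their edgeR adjusted p was 0.00146 and 0.0146. The ELOVL6 call was lost without shControl 1A or 1B (edgeR adjusted p = 0.0544 and 0.0597), and 52.3% of the exonic bases of ACAT2 are covered by genes on the other strand. ACLY was at the threshold (-0.12 ± 0.05, edgeR adjusted p = 0.0496) and kept its call in 1 of 6 fits without 1 library, with an edgeR adjusted p of 0.0656 to 0.177 without any library other than shDYRK1A 1C. ACACA, the carboxylase that makes malonyl-CoA, and FASN, the synthase that builds palmitate, differed by -0.02 ± 0.04 and 0.02 ± 0.05 relative to the other genes (edgeR adjusted p = 0.745 and 0.769). Per cell the latter pair was lower by 0.42 ± 0.13 and 0.39 ± 0.13 (edgeR adjusted p = 0.00413 and 0.00704), against a median of -0.40 for all genes, and the calls were lost without shDYRK1A 1B for both (edgeR adjusted p = 0.0526 and 0.056) and without shControl 1B for FASN (0.121).

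The share of all human gene counts that went to each branch was small and moved in different directions (the plot of branch shares). The mevalonate pathway took 0.0583 ± 0.000571% (SD, n = 3) of counts in shControl and 0.0633 ± 0.00164% in shDYRK1A. The route from squalene to cholesterol took 0.0985 ± 0.00163% and 0.0900 ± 0.00128%, and the fatty acid genes, with ACAT2 counted among them, 0.286 ± 0.000751% and 0.255 ± 0.00978%. The groups of libraries were separate in these 3 branches, with no test made. Without MSMO1 and SQLE, a setting chosen after the data were seen, the squalene-to-cholesterol difference turned from -0.00851 to 0.0032 percentage points, and without SCD the fatty acid difference went from -0.0312 to -0.016. Sterol sensing and transport took 0.0469 ± 0.00158% and 0.0474 ± 0.00101%, which overlapped, and without SREBF2, its most abundant gene, the difference turned from 0.000483 to -0.0027 percentage points. For the branches other than sensing and transport, counting error was small beside the difference, as in shDYRK1A 1B, where the fatty acid share of 0.247% had a 95% Wilson interval of 0.245 to 0.248%, which covers counting error only.

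**Figure D4:**
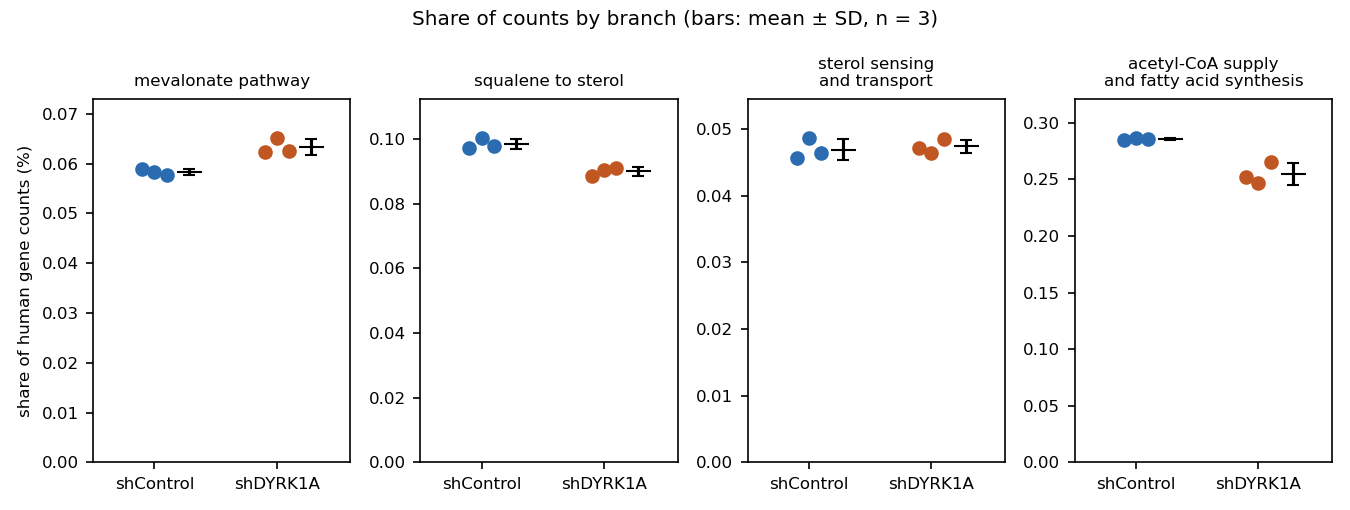
Share of human gene counts (%, vertical axes from 0) taken by each branch in each library, in the order 1A, 1B and 1C, with the mean and SD of each group beside the points. The mevalonate share is higher in every shDYRK1A library, the squalene-to-sterol and fatty acid shares are lower, and the sensing and transport shares overlap.

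A wider list of 68 lipid genes, of which 59 were tested, stood at the same place as all genes. With the spike-in 8 of 59 were called lower (13.6%, against 14.3% of all genes). In the higher direction 0 were called (against 0.278% of all genes; 0 also at an unadjusted p under 0.05 in edgeR and with DESeq2). The median log2 fold change was -0.39, against -0.40 for all genes. Relative to the other genes 17 were lower and 17 higher (28.8% each, against 28.6% and 27.3% of all genes, shares against which the counts that follow are also to be read). Isoprenoid genes had 2 of 8 lower and 0 of 8 higher on this scale (1 higher at an unadjusted p under 0.05 in edgeR and 0 with DESeq2), other genes of SREBP processing 3 and 2 of 8, and sterol uptake, export and esterification 3 and 4 of 8. Other acetyl-CoA and NADPH supply had 1 and 1 of 4, other elongation, desaturation and activation 4 and 3 of 11, triglyceride and phospholipid synthesis 3 and 4 of 11, and fatty acid oxidation 1 and 3 of 9.

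The 3 genes of this wider list with the lowest relative fold change among those below on both scales were SOAT1, LPIN2 and IDH1, and none was higher on both. SOAT1 esterifies cholesterol for storage in droplets, and it fell more than any member. It had 4476, 4182 and 3591 normalized counts in shControl and 1302, 986 and 1204 in shDYRK1A, far apart, with a log2 fold change of -1.81 ± 0.15 with the spike-in (edgeR adjusted p = 6.93e-32) and -1.41 ± 0.06 relative to the other genes (edgeR adjusted p = 1.22e-08). LPIN2, a phosphatidate phosphatase, fell by 0.96 and 0.57 on these log2 scales (edgeR adjusted p = 5.09e-10 and 2.79e-05). IDH1, which supplies cytosolic NADPH, fell by 0.88 and 0.48 (edgeR adjusted p = 1.29e-09 and 4.26e-06).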

How the data were processed

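RNA was taken from T98G cells mixed with fly Kc167 cells, 3 libraries per group, grouped by sample titles. The authors prepared stranded mRNA libraries and deposited raw counts per gene (58174 human genes; STAR and hg38 in the submitters' processing notes, versions and annotation not given in the sources used here). Whether counting used strand is not stated. The authors also deposited a signal table, in which each count is divided by 1 size factor per library derived from fly reads. Their comparison table (log2 fold changes, errors, a Wald score, p-values) was not used. Rows that name no gene held 18.89 to 25% of reads and were left out. No per-sample column was unmatched (0).

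Size factors were taken as raw over normalized count. Genes with a mean normalized count above 10 CPM of the mean library size were kept, as in the study. edgeR 4.0.16 in R 4.3.3 (glmQLFit, robust, and glmQLFTest) was fitted over 9697 genes, once with spike-in factors and once with TMM, with Benjamini-Hochberg adjustment over all genes, and the SE is the fold change over the root of F. Self-tests on simulated data were run first. Coordinates and exon overlaps came from GENCODE v29 (GRCh38), whose gene coordinates equalled those of 95.83% of the table. Promoters came from RefSeq, and no window was found for FDFT1, SQLE, ACAT2 and FASN. Python 3.11.15 was used for summaries. Alternatives were other scalings and filters, DESeq2 1.42.0, other thresholds, a replicate block and leaving out each library.

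The members, lists and motifs were chosen with earlier results of these data known. All members and DYRK1A are named, and of other lipid genes up to 3 per direction with the largest relative change among those past both tests.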

Additional observations from a re-analysis of the deposited data

How the results depend on the processing

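The count of members called lower with the spike-in was 4 (14.3% of all genes), and 18 with adjusted p alone (63.4% of all genes). It was 12 with a log2 fold change past 0.5 and 4 to 6 without 1 library. Relative to other genes, 10 were lower (28.6% of all genes) and 7 higher (27.3%), against 4 and 3 with a log2 fold change past 0.3. Without 1 library these were 7 to 11 and 7 to 8. Where no share of all genes is given, the count shows only how calls depend on the setting. With TMM in place of the spike-in the sign turned for HMGCS1 (0.0526), PMVK (0.29), FDPS (0.0281), NSDHL (0.15), EBP (0.11), SREBF1 (0.24), SREBF2 (0.24), SCAP (0.26), STARD4 (0.11) and FASN (0.0205), and with the median of ratios these were 0.0557, 0.30, 0.0312, 0.15, 0.11, 0.25, 0.24, 0.26, 0.11 and 0.0238; these scalings set the median of all genes to about 0. On the relative scale FDPS and FASN turned to -0.0025 and -0.0096 with filterByExpr and to -0.0183 and -0.0251 with no filter beyond 1 count. Leaving out 1 library gave -0.0349 to 0.15 for MVK, -0.0838 to 0.0734 for MVD and -0.0219 to 0.12 for DHCR7 with the spike-in, and -0.0323 to 0.0641 for FDPS, -0.0169 to 0.074 for FASN and -0.0466 to 0.0155 for ACACA on the relative scale. The share of sterol sensing and transport was -0.000138 to 0.00137 percentage points without 1 library and -0.0027 without SREBF2, and that of the fatty acid genes was -0.0312, and -0.016 without SCD. Without MSMO1 and SQLE, a setting chosen after seeing the data, the share from squalene to sterol turned from -0.00851 to 0.0032. The cause was not tested. DESeq2 added NSDHL, EBP and STARD4 with the spike-in and LSS on the relative scale. MSMO1, SQLE, INSIG1 and FADS2 passed an adjusted p of 0.05 in every alternative fit run.

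Same-named libraries had correlated deviations (0.151, 0.0735 and 0.128 for 1A, 1B and 1C, against -0.0953 to -0.0146 for other pairs), and each library correlated best with its own name, which is a hint from the data and not from the design. Because deviations were taken from group means, positive values for same-named pairs force negative values among the other pairs. That contrast is thus partly built in. With the replicate block, 4 members were called lower with the spike-in, and 11 were lower and 8 higher relative to other genes. The added calls were LSS (-0.14) and NSDHL (0.14), and no share of all genes is given for this fit. CYP51A1 and TM7SF2 lie near the depth limit, with raw counts of 38 to 57 and 148 to 377.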
